A study of Arabidopsis thaliana with 15 samples.

Results

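The ethylene response factor (ERF) genes of Arabidopsis thaliana were followed by RNA sequencing in complete rosettes of 5 lines, in a series made to learn what the transcription factor NAC052 does in leaf development. Every row of the gene table whose name starts with ERF followed by a digit was taken, which gave 80 of 32833 rows. Of these, 77 were ethylene response factors. The other 3 (ERF1-1, ERF1-2 and ERF1-3) encode peptide chain release factors that share only the letters of the name and are given apart. All lines descend from Col-0 and carry a bundle sheath reporter, in which the GLDPA promoter of Flaveria trinervia drives an sGFP with a chloroplast transit peptide. In the activation-tagged line the F. trinervia GLDT promoter, which is active in the leaf bundle, landed inside the coding sequence of NAC052. The CRISPR/Cas line has a nucleotide insertion that shifts the reading frame of NAC052. The last pair of transgenic lines hold a randomly inserted copy behind the GLDT promoter, of the shortened coding sequence in GLDT::5'truncatedNAC052 and of the whole one in GLDT::NAC052, and the reference line holds the reporter alone. Each line was sampled as 3 biological replicates on day 28, from plants kept in soil under 16 h of light and 8 h of dark. How many plants made up a replicate and how many independent transformants stood behind a line were not given in the sources used here, so the p-values measure the spread between these libraries.

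ERF proteins are plant transcription factors with a single AP2/ERF DNA-binding domain. Those of the ERF subfamily (B groups) typically bind the GCC box of ethylene- and jasmonate-responsive defence genes, and those of the DREB subfamily (A groups) the dehydration-responsive element of cold and drought genes. Many are transcribed quickly after ethylene, jasmonate, wounding, cold or pathogen signals, and some, with an EAR motif, repress their targets. By the TAIR10.1 annotation 31 of the 77 genes belonged to the DREB subfamily (13 in A-4, 12 in A-5 and 6 in A-6) and 45 to the ERF subfamily. The ERF subfamily had 12 genes in B-1, which holds the EAR repressors, 1 in B-2, 18 in B-3, which holds the GCC-box activators, 4 in B-4, 2 in B-5 and 8 in B-6. For ERF053 no group was given.

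The libraries held 28074380 to 38579309 counts each. NAC052 itself was at 64.03, 61.69 and 80.01 CPM (counts scaled to library size) in the activation-tagged line, 22.21, 20.11 and 22.59 CPM in the CRISPR/Cas line and 25.01, 66.01 and 52.49 CPM in GLDT::5'truncatedNAC052 rosettes. NAC052 was at 279.8, 27.19 and 165.0 CPM in the GLDT::NAC052 line, against 19.69, 20.58 and 19.46 CPM in the reference line. Replicate 2 of GLDT::NAC052 thus stood near the reference line for the gene it carries as a transgene, and read counts do not test the frameshift of the CRISPR/Cas line. The file's column names place the activation-tagged and reference libraries on sequencing lane 1 and the other 3 lines on lane 8. Line and lane therefore cannot be told apart when a lane 8 line is set against the reference line, while comparisons among the lane 8 lines, and of activation-tagged with reference, are within a lane. All 4 leaf markers (RBCS1A, LHCB1.1, CA1 and RCA) were detected, and they summed to 37200 to 41900 CPM in activation-tagged, 25100 to 27800 in CRISPR/Cas, 21500 to 30700 in GLDT::5'truncatedNAC052, 18000 to 24800 in GLDT::NAC052 and 31000 to 34700 CPM in reference rosettes. In comparison, 8 flower markers summed to 0.906 to 3.22 CPM, with 1 or 2 of them at 0 in each line, and 6 root markers to 7.16 to 12.5 CPM, with 1 or 2 at 0. Of the markers, CA1 fell in CRISPR/Cas against reference (-1.03 ± 0.21, edgeR adjusted p = 0.00348), the root marker PYK10 (BGLU23) was higher there (5.69 ± 1.55, adjusted p = 0.0177) and the flower marker AG fell in GLDT::NAC052 against reference (-1.59 ± 0.41, adjusted p = 0.00862). PYK10 rested on 1 library, with 4, 144 and 6 counts in CRISPR/Cas against 0, 0 and 2 in reference rosettes, and was not called without CRISPR/Cas replicate 2 (log2 fold change 2.51) or without reference replicate 1 or 2, while without reference replicate 3 it was 8.47. CA1 was inside the 2-fold limit without CRISPR/Cas replicate 1 or 2 or reference replicate 3 (-0.97, -0.98 and -0.95). In whole rosettes fewer cells that transcribe a gene and less transcript per cell cannot be told apart, and the part of tissue makeup in the differences given here was not tested.

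At least 1 count was found for 70 of the 77 ERF genes, and 7 were at 0 in all 15 libraries. The 10 genes that stayed under 3 counts in every library, and so were not detected at this depth, were ERF021, ERF024, ERF084, ERF086 (PUCHI, a regulator of lateral root and floral primordia), ERF087, ERF091, ERF096, ERF105, ERF110 and ERF122. ERF105, a cold-responsive gene, overlaps AT5G51180 on the opposite strand, which was given 780 to 1225 counts per library. The kit keeps strand, but whether the counting used it was not given in the sources used here, so the zeros of ERF105 are uncertain. A mean of at least 1 CPM was reached by 36 ERF genes in the activation-tagged line, 37 in CRISPR/Cas, 42 in GLDT::5'truncatedNAC052, 48 in GLDT::NAC052 and 35 in the reference line. How many of all genes reached this level in each line was not counted, so these numbers are a description.

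Per length, the most abundant ERF transcript over the 15 libraries was ERF107 (DEWAX, a repressor of cuticular wax genes), with a level of 80.01 CPM per kb of exon. It was followed by ERF106 at 53.06, ERF4 at 28.6, ERF2 at 18.61, ERF043 at 17.71, ERF3 at 17.19 and ERF7 at 14.17 CPM per kb. The order differed by line. In GLDT::NAC052 rosettes ERF4 stood first at 73.21 CPM per kb, ahead of ERF043 at 43.54 and ERF107 at 42.54, while in reference rosettes ERF107 stood first at 102.3, ahead of ERF106 at 63.19 and ERF4 at 17.16 CPM per kb. Summed over the 77 genes, ERF transcripts came to 570.5, 647.2 and 820.4 CPM in the GLDT::NAC052 libraries and to 433.2 to 514.3 CPM in the other 12 libraries, without overlap. Replicate 3 of GLDT::NAC052 was the highest of all 15 libraries for 26 of the 56 ERF genes that could be tested. The same count over all genes was not made, so it is not shown to be a trait of the ERF genes. Over all tested genes, calls of GLDT::NAC052 against reference went from 1614 to 1186 without this library.

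The 250 bases before the annotated start of each gene were read from the TAIR10.1 genome (RefSeq) and searched on both strands for the letters of 3 motifs. The GCC box (GCCGCC), to which ERF proteins of the B groups bind, was found before 3 of the 77 ERF genes (3.9%) and before 1.87% of 27443 protein-coding genes. The W box (TTGACC or TTGACT), the site of WRKY factors, was found before 22 ERF genes (28.6%) and 28.4% of all genes, and the CAMTA-type element (CGCGTT or CGCGTG), the site of calmodulin-binding CAMTA factors, before 5 ERF genes (6.49%) and 4.76% of all genes. Among the 24 ERF genes that were higher in GLDT::NAC052 than in reference rosettes, 1 had a GCC box (4.17%), 6 a W box (25%) and 2 a CAMTA-type element (8.33%). A match is a run of letters and not a shown binding site. Shown here are 4 windows of genes whose levels differed between lines: ERF11 with a GCC box and a W box, ERF094 with a GCC box, ERF019 with 3 W boxes and ERF043 with a CAMTA-type element. They lie at chr1:9956981-9957230 (minus strand), chr1:1882657-1882906 (plus strand), chr1:8075038-8075287 (minus strand) and chr4:15819239-15819488 (plus strand), and are written 5′ to 3′ on the strand of the gene, up to the base before its start, with motif letters in capitals.
ERF11: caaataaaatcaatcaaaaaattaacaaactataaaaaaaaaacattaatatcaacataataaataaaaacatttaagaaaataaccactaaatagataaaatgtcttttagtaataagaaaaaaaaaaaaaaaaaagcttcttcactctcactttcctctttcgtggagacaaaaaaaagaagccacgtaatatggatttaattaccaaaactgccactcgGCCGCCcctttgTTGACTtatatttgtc
ERF094: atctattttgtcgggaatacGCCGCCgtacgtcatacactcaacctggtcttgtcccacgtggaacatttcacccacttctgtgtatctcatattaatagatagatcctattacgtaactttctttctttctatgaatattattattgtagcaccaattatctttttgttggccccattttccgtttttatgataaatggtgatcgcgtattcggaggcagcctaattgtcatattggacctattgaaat
ERF019: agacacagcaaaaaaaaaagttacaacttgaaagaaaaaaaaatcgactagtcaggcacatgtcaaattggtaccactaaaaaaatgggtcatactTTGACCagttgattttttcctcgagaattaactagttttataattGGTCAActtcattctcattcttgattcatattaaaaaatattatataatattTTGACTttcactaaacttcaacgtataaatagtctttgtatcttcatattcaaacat
ERF043: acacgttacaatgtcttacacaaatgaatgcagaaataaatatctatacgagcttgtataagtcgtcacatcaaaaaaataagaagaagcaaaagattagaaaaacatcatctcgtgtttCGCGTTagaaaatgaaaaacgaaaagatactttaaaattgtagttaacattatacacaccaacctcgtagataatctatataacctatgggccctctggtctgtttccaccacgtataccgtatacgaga

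Differences were tested with edgeR's quasi-likelihood test on the 19663 genes with enough counts, 56 ERF genes among them, while 21 ERF genes had too few counts. A gene was called when its adjusted p (Benjamini-Hochberg over the 19663 genes) was under 0.05 and it changed more than 2-fold. Standard errors (SE) of log2 fold changes are the fold change over the square root of the test's F. Of the 56 genes, 33 were called in at least 1 of 7 comparisons and 23 in none. The share of all 19663 genes called in at least 1 comparison was not computed. The count of 33 therefore says nothing particular of the ERF genes, and shares over all tested genes are given for each comparison below.

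Set against the reference line, which is on another lane, GLDT::NAC052 rosettes had more transcript of a broad part of the family. Line and lane cannot be told apart in this comparison. Of the 56 tested ERF genes 24 were higher (42.857%) and 1 was lower (1.786%), where 5.36% of all tested genes were higher and 2.85% lower. The median log2 fold change of the ERF genes was 1.03, and that of all genes was 0.00. Of the tested genes, 5 of 11 in A-4, 4 of 10 in A-5, 4 of 5 in A-6, 3 of 8 in B-1, 5 of 13 in B-3 and both in B-4 were higher, as was ERF053, and none of the 2 in B-5 and 4 in B-6 was called. In 22 of the 24 genes every GLDT::NAC052 library lay above every reference library, the exceptions being ERF011 and ERF054. The groups likewise did not overlap in 95.5% of all genes called higher and, upward, in 23% of all tested genes, so this count says nothing particular of the ERF genes. ERF016, ERF019 and ERF1B had fewer than 10 counts in each reference library. ERF019 passed the filter on low counts only through the GLDT::NAC052 libraries, and ERF016 only through those and the CRISPR/Cas libraries together. ERF016 and ERF019 thus had to be high in GLDT::NAC052 to be tested, and are no support for the count of 24.

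**Figure D1:**
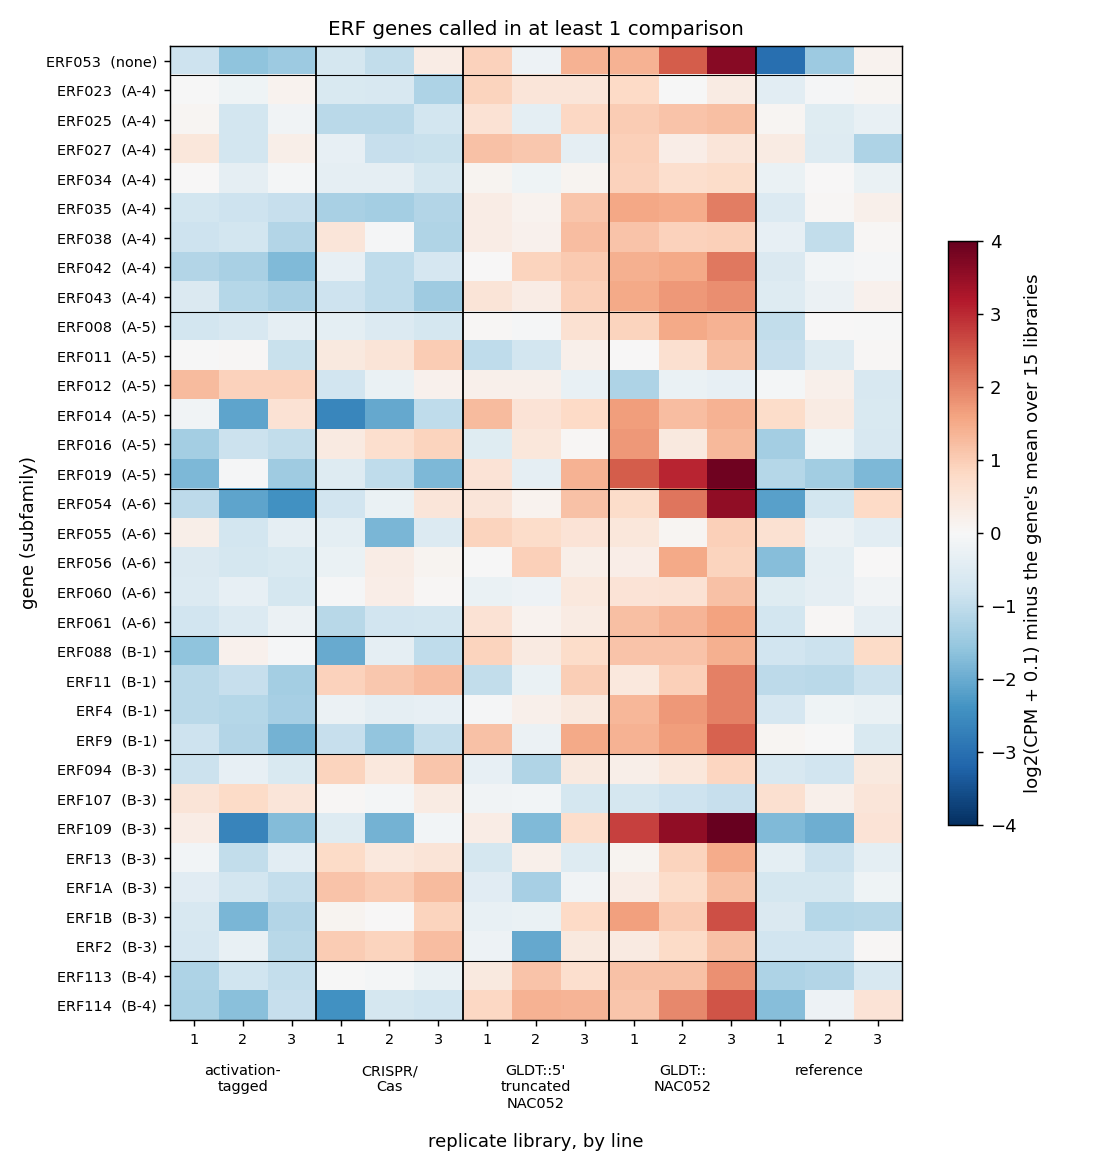
Levels of the 33 ERF genes called in at least 1 comparison (down, with the annotated subfamily) in the 15 libraries (across, 3 replicates per line); colour gives log2(CPM + 0.1) minus the mean of that gene over all libraries. Most genes are highest in the 3 GLDT::NAC052 libraries, while ERF1A, ERF2, ERF11 and ERF13 are high in the CRISPR/Cas libraries as well and ERF012 is high in the activation-tagged libraries.

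In group B-1, ERF4 is an EAR repressor of ethylene and jasmonate responses that promotes leaf senescence. It was at 63.97, 84.1 and 102 CPM in GLDT::NAC052 rosettes, with 11.8, 11.3 and 9.95 CPM (activation-tagged), 21.2, 19.5 and 20.2 CPM (CRISPR/Cas) and 24.2, 29.04 and 32.8 CPM (GLDT::5'truncatedNAC052) elsewhere, against 15.8, 22.2 and 20.7 CPM in reference rosettes. No library of another line reached the GLDT::NAC052 values. The log2 fold change of GLDT::NAC052 was 2.09 ± 0.17 over reference (SE; edgeR adjusted p = 1.37e-05) and 1.54 ± 0.17 over GLDT::5'truncatedNAC052 (adjusted p = 0.00183), and that of CRISPR/Cas over GLDT::NAC052 was -2.04 ± 0.17 (adjusted p = 1.52e-06). In activation-tagged rosettes ERF4 was -0.83 ± 0.17 from reference, inside the 2-fold limit (adjusted p = 0.0186).

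ERF9, an EAR repressor of defence genes, was at 9.18, 11.2 and 18.2 CPM in GLDT::NAC052 rosettes, against 3.63, 3.39 and 2.24 CPM in reference rosettes. Elsewhere ERF9 was at 1.899, 1.46 and 0.851 CPM (activation-tagged), 1.77, 1.08 and 1.73 CPM (CRISPR/Cas) and 7.87, 2.87 and 9.97 CPM (GLDT::5'truncatedNAC052). It rose in GLDT::NAC052 over reference (2.05 ± 0.41, edgeR adjusted p = 0.00193), and in CRISPR/Cas it was lower than in GLDT::5'truncatedNAC052 (-2.18 ± 0.43, adjusted p = 0.00203) and GLDT::NAC052 (-3.08 ± 0.43, adjusted p = 8.81e-05). ERF11, an EAR repressor of ethylene synthesis genes, was at 2.67, 3.01 and 3.37 CPM in CRISPR/Cas and 1.86, 2.73 and 5.83 CPM in GLDT::NAC052 rosettes, against 0.6102, 0.592 and 0.714 CPM in reference rosettes. Elsewhere ERF11 was at 0.601, 0.668 and 0.4696 CPM (activation-tagged) and 0.645, 1.12 and 2.77 CPM (GLDT::5'truncatedNAC052). It was higher than in reference in CRISPR/Cas (2.24 ± 0.49, adjusted p = 0.00605) and in GLDT::NAC052 (2.44 ± 0.49, adjusted p = 0.00215). Without GLDT::NAC052 replicate 3 the value of that line was 1.85. These lines are on lane 8 and the reference line on lane 1, so line and lane cannot be told apart here. ERF11 was not called between any of the lane 8 lines, and GLDT::5'truncatedNAC052 overlapped with CRISPR/Cas and GLDT::NAC052. ERF088 averaged 0.104 ± 0.106 CPM in CRISPR/Cas rosettes, against 0.856 ± 0.116 in GLDT::NAC052 and 0.545 ± 0.115 CPM in GLDT::5'truncatedNAC052 rosettes (SD, n = 3 each). It was lower in CRISPR/Cas than in either (-2.95 ± 0.78 and -2.299 ± 0.80, adjusted p = 0.00807 and 0.0442), with means of 0.226 ± 0.171 CPM in activation-tagged and 0.282 ± 0.261 CPM in reference rosettes. Without CRISPR/Cas replicate 2 the ERF088 values were -3.94 and -3.29. The most abundant B-1 genes after ERF4 were called nowhere: ERF3, an EAR repressor, averaged 36.3 ± 6.21 CPM in GLDT::NAC052 and 26.2 ± 2.03 CPM in reference rosettes, and ERF7, an EAR repressor in abscisic acid responses, 37.2 ± 6.12 CPM in GLDT::NAC052 and 26.7 ± 0.832 CPM in reference rosettes.

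In group B-3, ERF109 (RRTF1, a redox-responsive factor) stayed under 1 CPM in every library outside GLDT::NAC052. It was at 4.05, 7.23 and 11.8 CPM in GLDT::NAC052 rosettes, with 0.665, 0 and 0.0881 CPM (activation-tagged), 0.337, 0.0705 and 0.478 CPM (CRISPR/Cas) and 0.672, 0.0837 and 0.924 CPM (GLDT::5'truncatedNAC052) elsewhere, against 0.0832, 0.0623 and 0.811 CPM in reference rosettes. Its log2 fold change in GLDT::NAC052 was 4.62 ± 0.96 over reference (edgeR adjusted p = 0.00247) and 3.77 ± 0.88 over GLDT::5'truncatedNAC052 (adjusted p = 0.0225), and CRISPR/Cas was -4.71 ± 0.95 from GLDT::NAC052 (adjusted p = 0.00136). Without reference replicate 3 the fold change over reference was 6.65. ERF109 overlaps AT4G34412 on the opposite strand, which had 181 to 310 counts per library, and without strand in the counting the reads of the pair could not be told apart. ERF1B, a primary ethylene response gene at which ethylene and jasmonate signals meet, was at 1.01, 0.617 and 2.004 CPM in GLDT::NAC052 rosettes, against 0.139, 0.0623 and 0.0649 CPM in reference rosettes. Elsewhere ERF1B was at 0.127, 0 and 0.0587 CPM (activation-tagged), 0.281, 0.258 and 0.553 CPM (CRISPR/Cas) and 0.188, 0.195 and 0.516 CPM (GLDT::5'truncatedNAC052). It rose over reference (3.69 ± 0.69, adjusted p = 0.00132) and over GLDT::5'truncatedNAC052 (1.998 ± 0.58, adjusted p = 0.0494), and was lower in CRISPR/Cas than in GLDT::NAC052 (-1.72 ± 0.57, adjusted p = 0.0262). Without GLDT::5'truncatedNAC052 replicate 3 ERF1B was 2.63 over that line. This call was lost without GLDT::NAC052 replicate 1 or 3 or GLDT::5'truncatedNAC052 replicate 1 or 2 (down to 1.44, adjusted p up to 0.232). It was also lost with library totals alone, with no filter on low counts and with only the libraries compared.

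The GCC-box activators ERF1A, ERF2 and ERF13 were high in both CRISPR/Cas and GLDT::NAC052 rosettes. ERF1A was at 26, 24.03 and 28.9 CPM in CRISPR/Cas and 14.7, 19.6 and 27.5 CPM in GLDT::NAC052, with 8.58, 7.08 and 6.02 CPM (activation-tagged) and 8.57, 4.69 and 10.8 CPM (GLDT::5'truncatedNAC052) elsewhere, against 7.32, 7.19 and 10.6 CPM in reference rosettes. Over reference it was 1.65 ± 0.28 in CRISPR/Cas and 1.301 ± 0.28 in GLDT::NAC052 (edgeR adjusted p = 0.0012 and 0.00294), and over GLDT::5'truncatedNAC052 it was 1.71 ± 0.28 and 1.36 ± 0.28 in those lines (adjusted p = 0.000599 and 0.0126). Between CRISPR/Cas and GLDT::NAC052 the libraries overlapped, and the difference of 0.35 ± 0.27 was not called (adjusted p = 0.31). ERF2 was at 41.1, 37.9 and 48.2 CPM in CRISPR/Cas and 26.3, 34.9 and 45.7 CPM in GLDT::NAC052, with 12.7, 16.6 and 9.42 CPM (activation-tagged) and 17.8, 4.83 and 26.5 CPM (GLDT::5'truncatedNAC052) elsewhere, against 11.9, 11.9 and 21.1 CPM in reference rosettes. It was higher in CRISPR/Cas than in reference (1.51 ± 0.43, adjusted p = 0.023) and GLDT::5'truncatedNAC052 (1.37 ± 0.43, adjusted p = 0.0288), and in GLDT::NAC052 than in reference (1.25 ± 0.43, adjusted p = 0.0376), and CRISPR/Cas was 0.25 ± 0.42 from GLDT::NAC052 (adjusted p = 0.659).

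ERF13 was at 2.58, 2.02 and 2.19 CPM in CRISPR/Cas and 1.64, 2.88 and 4.31 CPM in GLDT::NAC052, with 1.39, 0.708 and 1.09 CPM (activation-tagged) and 0.887, 1.73 and 1.005 CPM (GLDT::5'truncatedNAC052) elsewhere, against 1.11, 0.778 and 1.103 CPM in reference rosettes. It rose over reference in CRISPR/Cas (1.18 ± 0.36, edgeR adjusted p = 0.0304) and GLDT::NAC052 (1.56 ± 0.36, adjusted p = 0.00488). GLDT::NAC052 was also over GLDT::5'truncatedNAC052 (1.28 ± 0.35, adjusted p = 0.0392), with libraries that overlapped, and with the replicate numbers as a block that call was lost (adjusted p = 0.0546, range 0.0091 to 0.185 over its alternatives). ERF094 (ORA59, the integrator of jasmonate and ethylene signals at defensin genes) lies outside the 30 called genes of smallest adjusted p and was chosen after its values were seen. It averaged 2.86 ± 0.664 CPM in CRISPR/Cas rosettes, against 1.296 ± 0.729 CPM in GLDT::5'truncatedNAC052 rosettes (SD, n = 3 each; 1.14 ± 0.40, adjusted p = 0.0461), with 1.01 ± 0.199 CPM in activation-tagged, 2.31 ± 0.555 in GLDT::NAC052 and 1.31 ± 0.669 CPM in reference rosettes.

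In GLDT::NAC052 against reference the single ERF gene that fell was ERF107. It was at 57.3, 53.2 and 49.8 CPM in GLDT::NAC052 rosettes, with 134, 161 and 132 CPM (activation-tagged), 96.7, 89.5 and 118 CPM (CRISPR/Cas) and 85.9, 86.2 and 57.05 CPM (GLDT::5'truncatedNAC052) elsewhere, against 146, 108 and 131 CPM in reference rosettes. GLDT::NAC052 was the lowest line, -1.27 ± 0.16 from reference (edgeR adjusted p = 0.000124), while CRISPR/Cas was 0.92 ± 0.16 over GLDT::NAC052, inside the 2-fold limit (adjusted p = 0.000507). ERF106, another abundant B-3 gene, was at 23.02, 21.8 and 18.2 CPM in GLDT::NAC052 rosettes, against 45.5, 35.3 and 37.5 CPM in reference rosettes (-0.91 ± 0.16, adjusted p = 0.000749), also inside the 2-fold limit. ERF106 overlaps AT5G07590 on the opposite strand, which had 171 to 393 counts per library.

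**Figure D2:**
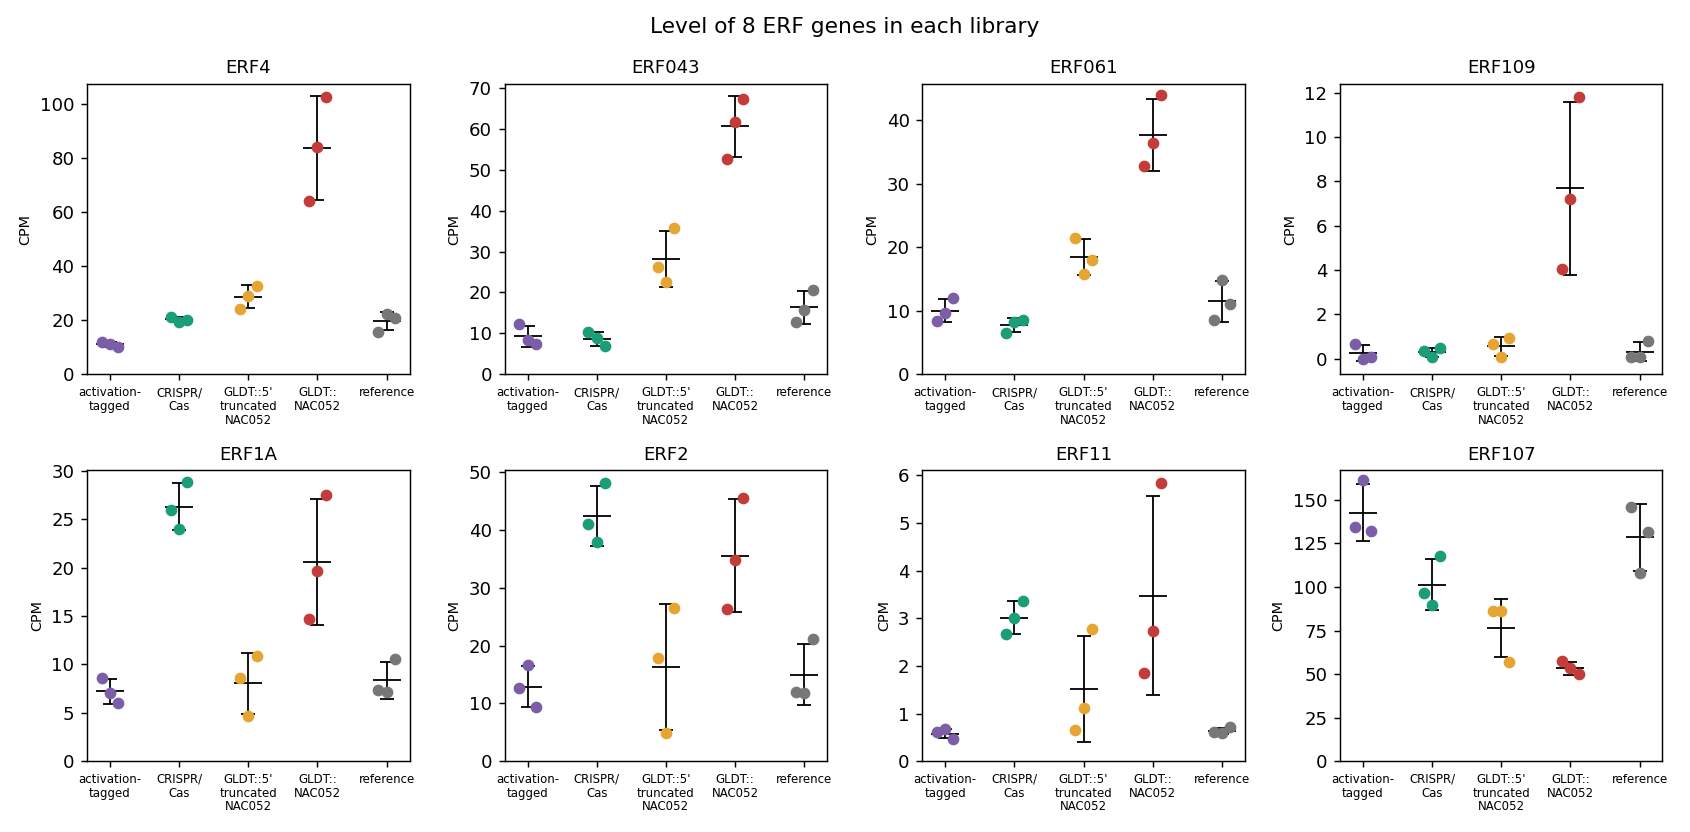
Level in CPM of 8 ERF genes in each library (points, 3 replicates per line), with the mean and SD of each line (bar and whiskers). ERF4, ERF043, ERF061 and ERF109 are highest in the GLDT::NAC052 line, ERF1A, ERF2 and ERF11 are high in both CRISPR/Cas and GLDT::NAC052, and ERF107 is lowest in GLDT::NAC052 at 57.3, 53.2 and 49.8 CPM.

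The DREB groups gave 13 of the 24 genes higher in GLDT::NAC052 than in reference, out of 26 tested, and the ERF groups 10 of 29. In A-4, ERF043 was at 52.6, 61.8 and 67.3 CPM in GLDT::NAC052 rosettes, against 12.7, 15.8 and 20.6 CPM in reference rosettes. Elsewhere ERF043 was at 12.2, 8.38 and 7.43 CPM (activation-tagged), 10.3, 8.998 and 6.84 CPM (CRISPR/Cas) and 26.2, 22.6 and 35.8 CPM (GLDT::5'truncatedNAC052). GLDT::NAC052 was over reference by 1.89 ± 0.23 (edgeR adjusted p = 8.46e-05) and over GLDT::5'truncatedNAC052 by 1.103 ± 0.22 (adjusted p = 0.0116), and CRISPR/Cas was -1.70 ± 0.23 from GLDT::5'truncatedNAC052 (adjusted p = 0.000175) and -2.80 ± 0.24 from GLDT::NAC052 (adjusted p = 1.82e-06). ERF035, which can drive primary wall formation, was at 0.225, 0.211 and 0.251 CPM in CRISPR/Cas and 2.24, 2.109 and 3.17 CPM in GLDT::NAC052, against 0.444, 0.716 and 0.811 CPM in reference rosettes. Elsewhere ERF035 was at 0.3798, 0.354 and 0.323 CPM (activation-tagged) and 0.887, 0.781 and 1.63 CPM (GLDT::5'truncatedNAC052). It moved in opposite directions from reference in the CRISPR/Cas line (-1.499 ± 0.37, adjusted p = 0.0107) and the GLDT::NAC052 line (1.93 ± 0.32, adjusted p = 0.000581), which differed by -3.43 ± 0.35 (adjusted p = 8e-06). It was also -2.25 ± 0.36 in CRISPR/Cas and 1.19 ± 0.30 in GLDT::NAC052 from GLDT::5'truncatedNAC052 (adjusted p = 0.000514 and 0.0301).

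The A-4 genes ERF042, ERF025 and ERF038 were each highest in GLDT::NAC052. ERF042 averaged 0.182 ± 0.0678 CPM in CRISPR/Cas and 1.35 ± 0.4099 CPM in GLDT::NAC052, with 0.0677 ± 0.0341 in activation-tagged, 0.6299 ± 0.247 in GLDT::5'truncatedNAC052 and 0.277 ± 0.0717 CPM in reference rosettes (SD, n = 3 each). It was over reference in GLDT::NAC052 (2.29 ± 0.43, edgeR adjusted p = 0.00127) and lower in CRISPR/Cas than in GLDT::5'truncatedNAC052 (-1.79 ± 0.45) and GLDT::NAC052 (-2.89 ± 0.44). ERF025 averaged 0.288 ± 0.0557 CPM in CRISPR/Cas and 1.53 ± 0.1204 CPM in GLDT::NAC052, with 0.546 ± 0.175 in activation-tagged, 0.915 ± 0.398 in GLDT::5'truncatedNAC052 and 0.549 ± 0.131 CPM in reference rosettes. GLDT::NAC052 was over reference (1.47 ± 0.36, adjusted p = 0.00633), and CRISPR/Cas was lower than GLDT::5'truncatedNAC052 (-1.66 ± 0.38) and GLDT::NAC052 (-2.399 ± 0.38). ERF038 averaged 0.545 ± 0.335 CPM in CRISPR/Cas and 1.29 ± 0.107 CPM in GLDT::NAC052, with 0.268 ± 0.0564 in activation-tagged, 0.981 ± 0.4698 in GLDT::5'truncatedNAC052 and 0.436 ± 0.184 CPM in reference rosettes. It was higher in GLDT::NAC052 than in reference (1.56 ± 0.48, adjusted p = 0.0216), and CRISPR/Cas was -1.24 ± 0.46 from GLDT::NAC052 (adjusted p = 0.0435).

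ERF034, ERF023 and ERF027 were called only among the lane 8 lines. ERF034 averaged 7.92 ± 1.02 CPM in CRISPR/Cas, against 18.8 ± 1.7 CPM in GLDT::NAC052 rosettes (-1.24 ± 0.14, edgeR adjusted p = 1.52e-05), with 9.95 ± 1.41 in activation-tagged, 11.1 ± 1.21 in GLDT::5'truncatedNAC052 and 9.79 ± 1.204 CPM in reference rosettes (SD, n = 3 each). ERF023 averaged 0.6797 ± 0.175 CPM in CRISPR/Cas, against 1.99 ± 0.347 CPM in GLDT::5'truncatedNAC052 (-1.55 ± 0.28, adjusted p = 0.00131) and 1.699 ± 0.522 CPM in GLDT::NAC052 rosettes (-1.32 ± 0.28, adjusted p = 0.00213), with 1.25 ± 0.154 in activation-tagged and 1.15 ± 0.214 CPM in reference rosettes. ERF027, outside the 30 genes of smallest adjusted p and chosen after its values were seen, averaged 0.0443 ± 0.0346 CPM in CRISPR/Cas, against 0.301 ± 0.191 CPM in GLDT::5'truncatedNAC052 and 0.254 ± 0.0888 CPM in GLDT::NAC052 rosettes. It was lower in CRISPR/Cas than in both (-2.72 ± 0.91 and -2.47 ± 0.92, adjusted p = 0.0392 and 0.0449), from few counts, and averaged 0.146 ± 0.0949 in activation-tagged and 0.0855 ± 0.0992 CPM in reference rosettes. Without CRISPR/Cas replicate 1 the ERF027 values were -3.45 and -3.21. ERF027 would not have passed the filter on low counts without the GLDT::5'truncatedNAC052 libraries, nor without the GLDT::NAC052 libraries. It thus had to be high there to be tested, and its values against those lines are a description.

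In A-5, ERF008 (DEAR3, a DREB protein with an EAR motif) was at 16.02, 24.6 and 22.6 CPM in GLDT::NAC052 rosettes, with 5.13, 5.47 and 6.66 CPM (activation-tagged), 6.54, 5.83 and 5.203 CPM (CRISPR/Cas) and 8.81, 8.26 and 13.3 CPM (GLDT::5'truncatedNAC052) elsewhere, against 4.24, 8.72 and 8.402 CPM in reference rosettes. GLDT::NAC052 was over reference by 1.57 ± 0.26 (edgeR adjusted p = 0.000545) and over GLDT::5'truncatedNAC052 by 1.06 ± 0.25 (adjusted p = 0.0232), and CRISPR/Cas was -1.85 ± 0.26 from it (adjusted p = 8.47e-05). Its relative ERF011 (DEAR1) averaged 9.66 ± 2.35 CPM in CRISPR/Cas and 9.91 ± 4.07 CPM in GLDT::NAC052, with 5.18 ± 1.67 in activation-tagged, 4.54 ± 2.19 in GLDT::5'truncatedNAC052 and 4.58 ± 1.597 CPM in reference rosettes (SD, n = 3 each). ERF011 was higher in GLDT::NAC052 than in reference (1.12 ± 0.38, adjusted p = 0.0356) and, unlike the other DREB genes called between those lines, higher in CRISPR/Cas than in GLDT::5'truncatedNAC052 (1.09 ± 0.38, adjusted p = 0.045).

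ERF019, whose window with 3 W boxes is shown above, was at 1.76, 2.75 and 5.05 CPM in GLDT::NAC052 rosettes, with 0, 0.236 and 0.0294 CPM (activation-tagged), 0.1404, 0.0705 and 0 CPM (CRISPR/Cas) and 0.403, 0.167 and 0.815 CPM (GLDT::5'truncatedNAC052) elsewhere, against 0.0555, 0.0311 and 0 CPM in reference rosettes. These were 376 counts over the 3 GLDT::NAC052 libraries against 3 over the reference libraries, a ratio of 105 in CPM with an exact 95% interval of 35.7 to 512, and against 8 over the CRISPR/Cas libraries, a ratio of 47 (23.6 to 110). The intervals cover counting error only. The fitted log2 fold changes were 6.57 ± 0.99 over reference and 2.77 ± 0.69 over GLDT::5'truncatedNAC052 (edgeR adjusted p = 0.000331 and 0.0272), and CRISPR/Cas was -2.70 ± 0.93 from GLDT::5'truncatedNAC052 and -5.47 ± 0.86 from GLDT::NAC052 (adjusted p = 0.0429 and 0.000225). As ERF019 passed the filter on low counts only through the GLDT::NAC052 libraries, these values are a description for the 3 comparisons that include that line. Without CRISPR/Cas replicate 1 CRISPR/Cas was -3.55 from GLDT::5'truncatedNAC052 and -6.33 from GLDT::NAC052. Without GLDT::5'truncatedNAC052 replicate 3 the first was -2.01, and GLDT::NAC052 was 3.46 over that line. Without reference replicate 1 GLDT::NAC052 was 7.36 over reference. ERF019 overlaps AT1G22800, with 0 to 58 counts, and AT1G05767, with 250 to 489 counts per library, both on the opposite strand.

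ERF016 was at 0.755, 0.232 and 0.533 CPM in GLDT::NAC052 rosettes, against 0, 0.124 and 0.0649 CPM in reference rosettes (2.98 ± 0.75, edgeR adjusted p = 0.00772), with means of 0.0229 ± 0.0204 in activation-tagged, 0.302 ± 0.0762 in CRISPR/Cas and 0.165 ± 0.0853 CPM in GLDT::5'truncatedNAC052 rosettes (SD, n = 3 each). Without reference replicate 1 it was 2.37 over reference, and without replicate 2 3.92. ERF014 was lowest in CRISPR/Cas, at 0, 0.047 and 0.201 CPM, against 1.81, 1.31 and 1.497 CPM in GLDT::NAC052, 1.34, 0.781 and 0.951 CPM in GLDT::5'truncatedNAC052 and 0.915, 0.654 and 0.292 CPM in reference rosettes, and its mean in activation-tagged rosettes was 0.425 ± 0.377 CPM. The CRISPR/Cas line was -4.14 ± 0.80 from GLDT::NAC052, -3.55 ± 0.81 from GLDT::5'truncatedNAC052 and -2.84 ± 0.84 from reference (adjusted p = 0.00105, 0.00553 and 0.0253), with 0, 2 and 8 counts behind its libraries. Without CRISPR/Cas replicate 3 these were -5.74, -5.16 and -4.45. ERF012 (DREB26) was the one ERF gene called in the activation-tagged line, and as it lies outside the 30 genes of smallest adjusted p it was chosen after its values were seen. It was at 8.86, 6.96 and 6.99 CPM in activation-tagged rosettes, against 3.47, 4.27 and 2.34 CPM in reference rosettes (1.18 ± 0.29, adjusted p = 0.0425), and averaged 3.11 ± 1.02 in CRISPR/Cas, 3.797 ± 0.724 in GLDT::5'truncatedNAC052 and 2.46 ± 0.828 CPM in GLDT::NAC052 rosettes.

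In A-6, ERF061 was at 32.9, 36.4 and 43.9 CPM in GLDT::NAC052 rosettes, with 8.42, 9.63 and 12.03 CPM (activation-tagged), 6.54, 8.29 and 8.496 CPM (CRISPR/Cas) and 21.6, 15.8 and 17.99 CPM (GLDT::5'truncatedNAC052) elsewhere, against 8.54, 14.9 and 11.1 CPM in reference rosettes. GLDT::NAC052 was over reference by 1.72 ± 0.20 (edgeR adjusted p = 7.02e-05) and over GLDT::5'truncatedNAC052 by 1.03 ± 0.19 (adjusted p = 0.0089), and CRISPR/Cas was -1.25 ± 0.20 from GLDT::5'truncatedNAC052 and -2.28 ± 0.20 from GLDT::NAC052 (adjusted p = 0.000548 and 2.66e-06). ERF054 spread widely, at 8.12, 21.8 and 58.04 CPM in GLDT::NAC052 rosettes, against 0.999, 2.87 and 8.597 CPM in reference rosettes (2.83 ± 0.73, adjusted p = 0.00896). It averaged 4.59 ± 2.09 CPM in CRISPR/Cas (-2.67 ± 0.72 from GLDT::NAC052, adjusted p = 0.00893), 1.398 ± 0.799 in activation-tagged and 7.74 ± 2.89 CPM in GLDT::5'truncatedNAC052 rosettes (SD, n = 3 each). Without GLDT::NAC052 replicate 3 ERF054 was 1.88 over reference and -1.72 in CRISPR/Cas from GLDT::NAC052, neither called, and without reference replicate 3 it was 3.94 over reference. ERF056 and ERF060 were called in GLDT::NAC052 over reference alone (1.68 ± 0.47 and 1.14 ± 0.21, adjusted p = 0.0139 and 0.00137). ERF056 averaged 1.598 ± 0.723 CPM in GLDT::NAC052 and 0.502 ± 0.3103 in reference rosettes, with 0.459 ± 0.0231 in activation-tagged, 0.803 ± 0.174 in CRISPR/Cas and 1.08 ± 0.427 CPM in GLDT::5'truncatedNAC052. ERF060 averaged 7.84 ± 2.06 CPM in GLDT::NAC052 and 3.57 ± 0.422 in reference rosettes, with 3.09 ± 0.388 in activation-tagged, 4.77 ± 0.506 in CRISPR/Cas and 4.51 ± 1.27 CPM in GLDT::5'truncatedNAC052. ERF055 was called only as lower in CRISPR/Cas, where it averaged 1.36 ± 0.653 CPM, against 4.09 ± 0.531 in GLDT::5'truncatedNAC052 (-1.60 ± 0.39, adjusted p = 0.00848) and 3.55 ± 1.14 CPM in GLDT::NAC052 rosettes (-1.40 ± 0.39, adjusted p = 0.0116), with 2.05 ± 0.731 in activation-tagged and 2.53 ± 1.06 CPM in reference rosettes.

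In B-4, ERF113 (RAP2.6L, a gene of waterlogging responses and shoot regeneration) was at 1.48, 2.57 and 1.82 CPM in GLDT::5'truncatedNAC052 and 2.62, 2.65 and 4.19 CPM in GLDT::NAC052, against 0.416, 0.436 and 0.681 CPM in reference rosettes. Elsewhere ERF113 was at 0.411, 0.5898 and 0.528 CPM (activation-tagged) and 1.09, 1.03 and 0.905 CPM (CRISPR/Cas). It was called higher than in reference in both lines with an added copy (1.93 ± 0.30 and 2.62 ± 0.30, edgeR adjusted p = 0.00493 and 6.43e-05). CRISPR/Cas, which holds no added copy, also lay above every reference library for ERF113 but was not called. The activation-tagged line, on the same lane as the reference line, overlapped with it. The other lines are on another lane, so line and lane cannot be told apart in the rise of ERF113 over reference. Between lines on that lane, CRISPR/Cas was -1.64 ± 0.28 from GLDT::NAC052 (adjusted p = 0.000366). ERF114, a gene of bud outgrowth, was at 0.0281, 0.329 and 0.302 CPM in CRISPR/Cas, 1.13, 1.73 and 1.66 CPM in GLDT::5'truncatedNAC052 and 1.38, 2.55 and 3.83 CPM in GLDT::NAC052, against 0.111, 0.498 and 0.908 CPM in reference rosettes, and averaged 0.191 ± 0.0731 CPM in activation-tagged rosettes. It was higher in GLDT::NAC052 than in reference (2.37 ± 0.61, adjusted p = 0.0088) and lower in CRISPR/Cas than in GLDT::5'truncatedNAC052 (-2.72 ± 0.66, adjusted p = 0.00761) and GLDT::NAC052 (-3.50 ± 0.66, adjusted p = 0.000808). ERF053, a drought-responsive gene, was at 7.29, 14.9 and 35.2 CPM in GLDT::NAC052 rosettes, against 0.2496, 0.934 and 2.98 CPM in reference rosettes (3.81 ± 0.74, adjusted p = 0.00162). Without reference replicate 3 this was 5.04, and without GLDT::NAC052 replicate 3 it was 3.04. It averaged 2.113 ± 1.12 CPM in CRISPR/Cas (-3.18 ± 0.70 from GLDT::NAC052, adjusted p = 0.00244), 1.08 ± 0.354 in activation-tagged and 4.98 ± 2.51 CPM in GLDT::5'truncatedNAC052 rosettes. Without GLDT::NAC052 replicate 3, CRISPR/Cas was -2.405 from it for ERF053, and without reference replicate 3 ERF114 was 3.10 in GLDT::NAC052 over reference.

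Leaving out any 1 library kept 19 of the 25 calls of GLDT::NAC052 against reference. Without replicate 2 of GLDT::NAC052, the library with NAC052 near the reference line, there were 23 calls, and without replicate 3, the library with the largest ERF sum, there were 21. ERF054 was lost without GLDT::NAC052 replicate 3 (adjusted p = 0.0545), as was ERF060, whose log2 fold change then was 0.91. ERF056 was lost without GLDT::NAC052 replicate 2 (adjusted p = 0.0638) and ERF038 without reference replicate 1 or 2 or GLDT::NAC052 replicate 1 (up to 0.0865). ERF2 and ERF011 were lost without reference replicate 1 or 2 or GLDT::NAC052 replicate 2 or 3 (up to 0.122 and 0.163). Over all alternatives the adjusted p covered 0.00219 to 0.0545 for ERF054, 7.81e-06 to 0.00901 for ERF060, 0.00345 to 0.0638 for ERF056, 0.00928 to 0.0865 for ERF038, 0.0163 to 0.122 for ERF2 and 0.0116 to 0.163 for ERF011. With at least 10 counts asked of every library, 13 genes were higher and 1 was lower.

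**Figure D3:**
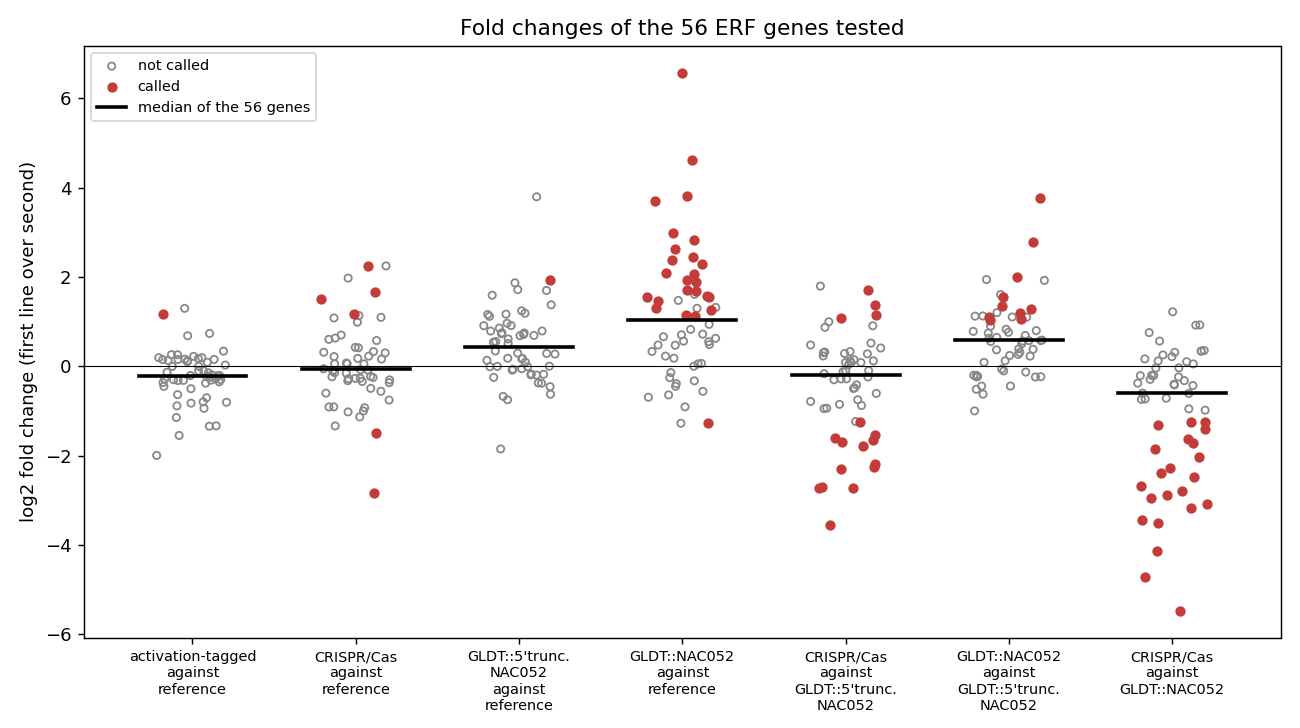
Log2 fold change of the 56 tested ERF genes in each of the 7 comparisons, the first-named line over the second, with called genes marked and the median of each comparison. The GLDT::NAC052 values against reference centre on 1.03 and the CRISPR/Cas values against GLDT::NAC052 on -0.61; the comparisons share lines, so they are not independent of each other.

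Within lane 8, GLDT::NAC052 was set against GLDT::5'truncatedNAC052, the whole against the shortened added copy. Here 10 ERF genes were higher and 0 were lower, where 1.49% of all tested genes were higher and 0.27% lower, and the median of the ERF genes was 0.58. The 10 were ERF035 and ERF043 of A-4, ERF008 and ERF019 of A-5, ERF061 of A-6, the repressor ERF4, and ERF109, ERF13, ERF1A and ERF1B of B-3. ERF019 is no support for this count, since it passed the filter on low counts only through the GLDT::NAC052 libraries and so had to be high there to be tested. The count of 0 lower with edgeR was also 0 at an unadjusted p under 0.05 and with DESeq2, but it was 1 without GLDT::NAC052 replicate 1 or 2, without GLDT::5'truncatedNAC052 replicate 2 or 3, and without a fold limit. The number of calls rested on single libraries. It was 2 without GLDT::NAC052 replicate 3, 3 without GLDT::5'truncatedNAC052 replicate 1, 2 without its replicate 2 and 16 without its replicate 3, and it was 0 when these 6 libraries were fitted alone. ERF4 alone was called whichever library was left out (adjusted p 0.000176 to 0.0189, and 5.23e-15 to 0.0542 over all alternatives). With the replicate numbers as a block 11 genes were called, 9 of them shared.

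Between the CRISPR/Cas and GLDT::NAC052 lines, also on 1 lane, 0 ERF genes were higher and 22 were lower in CRISPR/Cas (39.286%), where 5.21% of all tested genes were higher and 7.69% lower. The median of the ERF genes was -0.61. ERF019 and ERF027 are no support for the count of lower genes. Without the GLDT::NAC052 libraries they would not have passed the filter on low counts, so they had to be high there to be tested. The 0 higher with edgeR was also 0 at an unadjusted p under 0.05 and with DESeq2, but it was 2 without CRISPR/Cas replicate 2, 1 without GLDT::NAC052 replicate 3 and 4 without a fold limit. In all 22 genes every CRISPR/Cas library lay below every GLDT::NAC052 library, as was so for 98.1% of all genes called lower and 26.4% of all tested genes. The DREB groups held 14 of the 22 (8 of 11 tested in A-4, 3 of 10 in A-5 and 3 of 5 in A-6), and the ERF groups 7 (3 in B-1, 2 in B-3 and 2 in B-4), beside ERF053. The B-3 activators ERF1A, ERF2 and ERF13 and the repressor ERF11 were not among them, with differences of 0.35 ± 0.27, 0.25 ± 0.42, -0.38 ± 0.34 and -0.20 ± 0.44 (adjusted p = 0.31, 0.659, 0.394 and 0.735). When a library was left out 4 calls could be lost: ERF054 without GLDT::NAC052 replicate 3 (adjusted p = 0.0554), ERF1B without CRISPR/Cas replicate 1 or 2 or GLDT::NAC052 replicate 3 (up to 0.144), and ERF027 and ERF038 without any but CRISPR/Cas replicate 1 (up to 0.14 and 0.142). Over all alternatives the adjusted p covered 0.00272 to 0.0554 for ERF054, 0.0127 to 0.144 for ERF1B, 0.0277 to 0.14 for ERF027 and 0.0179 to 0.142 for ERF038.

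Against GLDT::5'truncatedNAC052, on the same lane, 4 ERF genes were higher and 13 lower in CRISPR/Cas (23.214% lower), where 3.4% of all tested genes were higher and 4.68% lower, with a median of -0.21. The higher genes were ERF1A, ERF2 and ERF094 of B-3 and ERF011. The lower genes were 6 of the 11 tested in A-4 (ERF023, ERF025, ERF027, ERF035, ERF042 and ERF043), ERF014 and ERF019 of A-5, ERF055 and ERF061 of A-6, ERF088 and ERF9 of B-1 and ERF114 of B-4. The libraries of the lines overlapped for ERF027 alone. They likewise did not overlap in 99.3% of all genes called higher and 96.6% of all genes called lower. Over all tested genes this held for 20.9% upward and 21.9% downward, so it says nothing particular of the ERF genes. Among the lower genes ERF027 is no support, since without the GLDT::5'truncatedNAC052 libraries it would not have passed the filter on low counts. Without CRISPR/Cas replicate 3 there were 11 calls. The 6 calls lost in some left-out fit were those of ERF2, ERF011, ERF019, ERF027, ERF088 and ERF094 (adjusted p up to 0.0759, 0.162, 0.147, 0.129, 0.119 and 0.151), each of them without CRISPR/Cas replicate 3, without GLDT::5'truncatedNAC052 replicate 1 and without at least 2 others. Over all alternatives it covered 0.00649 to 0.0759 for ERF2, 0.00956 to 0.162 for ERF011, 0.0141 to 0.147 for ERF019, 0.0161 to 0.129 for ERF027, 0.0185 to 0.119 for ERF088 and 0.00947 to 0.151 for ERF094.

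**Figure D4:**
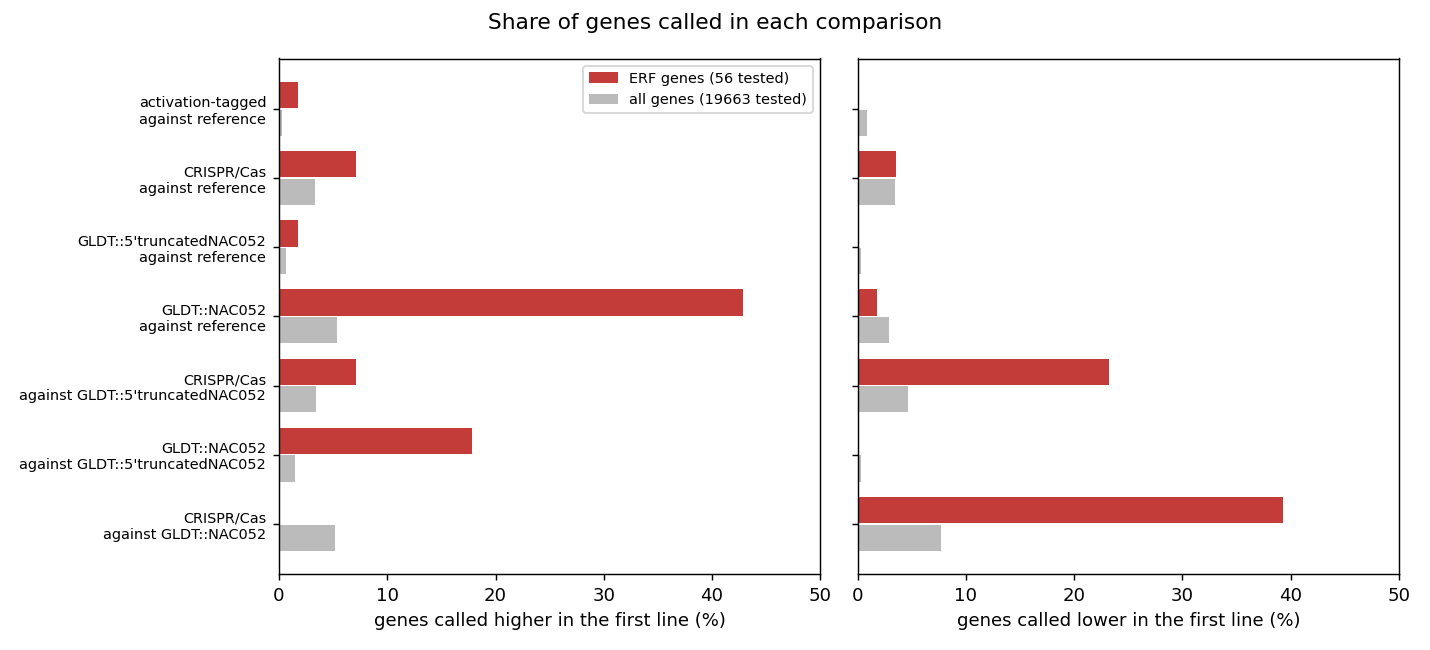
Percentage of genes called higher (left) and lower (right) in the first-named line of each comparison, for the 56 tested ERF genes (red) and all 19663 tested genes (grey). The ERF share is far from that of all genes for genes higher in GLDT::NAC052 against reference (42.857% and 5.36%) and for genes lower in CRISPR/Cas against GLDT::NAC052 (39.286% and 7.69%). The first share includes ERF016 and ERF019 and the second ERF019 and ERF027, which would not have been tested without the GLDT::NAC052 libraries.

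Against the reference line, on another lane, 4 ERF genes were higher and 2 lower in CRISPR/Cas, where 3.3% of all tested genes were higher and 3.44% lower. The share of ERF genes that were lower (3.571%) was near that of all genes. Those higher were ERF1A, ERF2, ERF13 and ERF11, and those lower were ERF035 and ERF014. ERF1A, ERF11 and ERF035 kept their calls whichever library was left out. ERF13 was lost without any one of the 6 libraries (adjusted p 0.0536 to 0.109), ERF2 without reference replicate 1 or 2 or CRISPR/Cas replicate 3 (up to 0.0862) and ERF014 without reference replicate 1 or 2 or CRISPR/Cas replicate 1 or 2 (up to 0.0916). Over all alternatives it covered 0.00872 to 0.109 for ERF13, 0.00258 to 0.0862 for ERF2 and 0.00292 to 0.0916 for ERF014.

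In GLDT::5'truncatedNAC052 against reference, on different lanes, ERF113 alone was called, where 0.62% of all tested genes were higher and 0.32% lower. Its adjusted p covered 6.52e-06 to 0.0511 over all alternatives, the highest with these 6 libraries alone. The median of the ERF genes was 0.43. The 0 lower with edgeR was also 0 with DESeq2, was 1 at an unadjusted p under 0.05 and 2 without a fold limit. Without GLDT::5'truncatedNAC052 replicate 2 there were 4 calls.

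In the activation-tagged line against reference, on the same lane, 1 ERF gene (ERF012) was higher and 0 were lower, where 0.295% of all tested genes were higher and 0.849% lower. The median of the ERF genes was -0.21. ERF012 lost its call without any one of the 6 libraries (adjusted p 0.0581 to 0.154), and its adjusted p covered 0.00443 to 0.154 over all alternatives. The 0 lower with edgeR was also 0 with DESeq2, was 2 at an unadjusted p under 0.05, and was 1 without a fold limit and 1 without activation-tagged replicate 1.

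Of the 23 tested genes called nowhere, ERF10 (an EAR repressor of B-1), ERF037 (A-4) and ERF098 (B-3) stood furthest from reference. ERF10 was at 0.0537, 0.0837 and 0.0815 CPM in GLDT::5'truncatedNAC052 rosettes, against 0.333, 0.124 and 0.357 CPM in reference rosettes (-1.85 ± 0.70, edgeR adjusted p = 0.14). ERF037 was at 0.704, 0.3601 and 0.685 CPM in GLDT::NAC052 rosettes, against 0.2496, 0.187 and 0.2595 CPM in reference rosettes (1.32 ± 0.51, adjusted p = 0.0581). ERF098 was at 0.285, 0.157 and 0.176 CPM in activation-tagged rosettes, against 0.416, 0.592 and 0.195 CPM in reference rosettes (-0.94 ± 0.49, adjusted p = 0.322). The release factors, which end translation at stop codons, were called in no comparison. ERF1-1 averaged 40.9 ± 1.91 CPM in GLDT::NAC052 and 35.6 ± 1.24 CPM in reference rosettes. ERF1-2 averaged 56.6 ± 3.19 CPM in GLDT::NAC052 and 46.6 ± 1.73 CPM in reference rosettes, and ERF1-3 averaged 18.9 ± 1.69 CPM in GLDT::NAC052 and 17.5 ± 0.716 CPM in reference rosettes (SD, n = 3 each).

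Upstream of the ERF genes, 12 of 14 ethylene synthesis genes could be tested. In CRISPR/Cas 1 was higher and 3 were lower than in reference, where 3.3% of all tested genes were higher and 3.44% lower, and likewise 1 and 3 than in GLDT::NAC052, where 5.21% and 7.69% were. In GLDT::NAC052 1 was higher and 0 were lower than in reference with edgeR (0 lower at an unadjusted p under 0.05 and with DESeq2 also), where 5.36% and 2.85% of all genes were. Of these calls 2 of 4, 3 of 4 and 1 of 1 were kept whichever library was left out. ACS8, an ACC synthase, was at 2.61, 1.95 and 5.48 CPM in CRISPR/Cas, against 23.1, 29.1 and 31.5 CPM in GLDT::NAC052 rosettes (-3.06 ± 0.39, edgeR adjusted p = 4.42e-05), and at 9.74, 14.1 and 5.06 CPM in reference rosettes. The ACC synthase genes ACS4 and ACS11 differed in opposite directions between those lines (-1.87 ± 0.36 and 1.11 ± 0.29, adjusted p = 0.000906 and 0.00832). Without CRISPR/Cas replicate 3 ACS4 was -2.51, and ACS11 was 0.93 and not called. The list's median against reference was -0.14 in CRISPR/Cas and 0.37 in GLDT::NAC052.

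Of 18 ethylene perception and signalling genes 17 could be tested, and in CRISPR/Cas 0 were higher and 4 lower than in GLDT::NAC052, and 0 and 2 than in reference (0 higher at an unadjusted p under 0.05 and with DESeq2 in both). The shares over all tested genes were 7.69% and 3.44% lower. The 4 calls were kept whichever library was left out, while against reference ERS2 was not called without reference replicate 1 (-0.94). The 4 were the receptor genes ETR2, ERS1 and ERS2 and EBF2, which encodes an F-box protein that removes EIN3. ETR2 was at 0.533, 0.5404 and 0.453 CPM in CRISPR/Cas, against 5.48, 4.604 and 7.56 CPM in GLDT::NAC052 (-3.52 ± 0.41, edgeR adjusted p = 2.15e-05) and 3.02, 2.33 and 1.103 CPM in reference rosettes (-2.08 ± 0.42, adjusted p = 0.00344). EBF2 was at 34.7, 35.2 and 46.1 CPM in CRISPR/Cas, against 117, 113 and 133 CPM in GLDT::NAC052 rosettes (-1.65 ± 0.14, adjusted p = 2.29e-06). ERS1 and ERS2 were -1.35 ± 0.13 and -2.03 ± 0.24 from GLDT::NAC052 (adjusted p = 4.1e-06 and 2.52e-05). ETR2 was also the 1 gene of the list higher in GLDT::NAC052 than in reference (1.44 ± 0.36, adjusted p = 0.00783). The list's median against reference was -0.06 in CRISPR/Cas and 0.19 in GLDT::NAC052.

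Downstream, 7 of 10 ethylene and jasmonate defence targets could be tested. In CRISPR/Cas 1 was higher and 1 lower than in reference and likewise than in GLDT::NAC052, and in GLDT::NAC052 1 was higher and 0 were lower than in reference with edgeR (0 lower at an unadjusted p under 0.05 and with DESeq2 also). Over all tested genes 3.3% were higher and 3.44% lower in CRISPR/Cas than in reference, 5.21% and 7.69% than in GLDT::NAC052, and 5.36% and 2.85% in GLDT::NAC052 than in reference. CHI-B, a basic chitinase, was at 1.57, 2.42 and 2.51 CPM in CRISPR/Cas and 1.16, 0.746 and 1.45 CPM in GLDT::NAC052, against 0.139, 0.498 and 0.357 CPM in reference rosettes (2.72 ± 0.50 and 1.76 ± 0.51, edgeR adjusted p = 0.00212 and 0.0163). In GLDT::NAC052 it was not called without replicate 3 of that line or reference replicate 1 (1.54 and 1.38). THI2.2, a thionin, was at 1.29, 1.504 and 1.33 CPM in CRISPR/Cas, against 2.61, 6.79 and 7.66 CPM in reference rosettes (-2.04 ± 0.46, adjusted p = 0.00654). HEL (PR4) was at 90.4, 72.4 and 88.7 CPM in CRISPR/Cas, against 24.2, 29.8 and 49.9 CPM in GLDT::NAC052 rosettes (1.27 ± 0.33, adjusted p = 0.0065). The list's median against reference was 0.35 in CRISPR/Cas and -0.02 in GLDT::NAC052.

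Of 26 AP2/ERF genes that carry other names 22 could be tested. In GLDT::NAC052 8 were higher and 0 lower than in reference, with a median of 0.74, and 4 were higher and 0 lower than in GLDT::5'truncatedNAC052. In CRISPR/Cas 0 were higher and 6 lower than in reference, and 0 higher and 11 lower than in GLDT::NAC052. These counts of 0 with edgeR were also 0 at an unadjusted p under 0.05 and with DESeq2. Over all tested genes 5.36% were higher in GLDT::NAC052 than in reference and 1.49% than in GLDT::5'truncatedNAC052, and 3.44% were lower in CRISPR/Cas than in reference and 7.69% than in GLDT::NAC052. Whichever library was left out, 6 of the 8, 0 of the 4, 2 of the 6 and 10 of the 11 calls were kept. ABR1, an AP2 factor of abscisic acid responses, was at 0.112, 0.611 and 0.251 CPM in CRISPR/Cas and 51.5, 73.2 and 102 CPM in GLDT::NAC052, against 0.6102, 3.74 and 5.38 CPM in reference rosettes (-3.24 ± 0.84 and 4.56 ± 0.63, edgeR adjusted p = 0.0136 and 0.000201). TINY, a DREB gene, was at 0.309, 0.423 and 0.377 CPM in CRISPR/Cas and 15.7, 20.4 and 7.43 CPM in GLDT::NAC052, against 0.999, 2.304 and 0.519 CPM in reference rosettes (-1.77 ± 0.54 and 3.51 ± 0.45, adjusted p = 0.0289 and 0.000122). In CRISPR/Cas against reference ABR1 was not called without CRISPR/Cas replicate 1 or reference replicate 3 (-2.87 and -2.66) and was -4.08 without CRISPR/Cas replicate 2. TINY was not called there without any 1 CRISPR/Cas library or reference replicate 2 (-1.04), and without reference replicate 2 it was 4.24 in GLDT::NAC052 over reference. RAP2.3, a group VII factor of hypoxia responses, was at 103, 86.5 and 108 CPM in CRISPR/Cas, against 238, 280.4 and 222 CPM in reference rosettes (-1.32 ± 0.12, adjusted p = 2.71e-05). RAP2.9, a DREB gene, was at 1.49, 1.22 and 1.68 CPM in CRISPR/Cas, against 12.9, 14.6 and 14.0 CPM in GLDT::NAC052 rosettes (-3.24 ± 0.28, adjusted p = 2.37e-06), and was lower in the activation-tagged line than in reference (-1.57 ± 0.29, adjusted p = 0.0107), a call lost without activation-tagged replicate 3 (-1.41).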

How the data were processed

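Rosette RNA of the 15 libraries was sequenced from TruSeq Stranded mRNA libraries. The authors trimmed and mapped the reads to TAIR10 in CLC Genomics Workbench, and the deposited table holds whole-number counts per gene. Another 6 columns belong to no sample described here and were not used. CPM are counts over the library size of the tested genes times the TMM factor. Genes that passed filterByExpr (minimum count 10) were fitted with a term per line over all 15 libraries in edgeR 4.0.16 (R 4.3.3, glmQLFit and glmQLFTest). The fit was also run on simulated counts, which gave every gene the same spread and held no lane effect. That run therefore does not cover the wide spread of some genes here. Alternatives were DESeq2 1.42.0, other scalings and filters, the 6 libraries alone, a replicate block, other limits, and each library left out. Same-numbered libraries of GLDT::NAC052 and GLDT::5'truncatedNAC052 deviated together most in replicate 3 (r = 0.206, 0.201 and 0.586 for replicates 1, 2 and 3). No label pairs them, so the calls given come from the fit without pairing, and the replicate block is an alternative. Groups, overlaps and exon lengths come from the TAIR10.1 annotation, and the files give no gene group. Named are called genes (30 of smallest adjusted p), the 3 uncalled genes highest per length and the 3 furthest from reference, genes not detected, and up to 4 called genes per list, of which 1 gene is not reported here. The members and lists were chosen with earlier results of these data known.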

Additional observations from a re-analysis of the deposited data

How the results depend on the processing

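No call of an ERF gene reversed. The 82 calls of a gene in a comparison were recomputed in up to 13 settings each. This gave 1024 recomputed calls, of which 895 were kept and 129 lost. Settings in which the gene was not tested are left out, and 51 of the 82 were kept in all others. Against the reference line, CRISPR/Cas (6 calls) had 10 calls with DESeq2, 11 with library totals alone (9 higher and 2 lower), 10 with a replicate block, 10 without a fold limit and 11 at unadjusted p. GLDT::5'truncatedNAC052 (1 call) had 3 with DESeq2, 0 with only the 6 libraries, 3 with a replicate block, 4 without a fold limit and 11 at unadjusted p. The activation-tagged line (1 call) had 0 with library totals, 2 without a fold limit and 3 at unadjusted p. With at least 10 counts in every library fewer genes were tested, and calls came to 14 in GLDT::NAC052 against reference, 9 in CRISPR/Cas against GLDT::5'truncatedNAC052, 6 in GLDT::NAC052 against GLDT::5'truncatedNAC052 and 10 in CRISPR/Cas against GLDT::NAC052. GLDT::NAC052 against GLDT::5'truncatedNAC052 had 0 with only the 6 libraries and 17 at unadjusted p. The cause of the other shifts was not tested. Without 1 library, calls against reference ranged from 0 to 1 (activation-tagged), 4 to 8 (CRISPR/Cas), 1 to 4 (GLDT::5'truncatedNAC052) and 21 to 28 (GLDT::NAC052), those against GLDT::5'truncatedNAC052 from 11 to 17 (CRISPR/Cas) and 2 to 16 (GLDT::NAC052), and those of CRISPR/Cas against GLDT::NAC052 from 19 to 22. Beside ERF13, the replicate block ended the calls of ERF038 (CRISPR/Cas against GLDT::NAC052) and ERF019 (CRISPR/Cas against GLDT::5'truncatedNAC052) and no other. Outside GLDT::NAC052 against GLDT::5'truncatedNAC052 same-numbered libraries correlated at -0.083 to 0.359, and they share only a number. Library totals alone moved the median over all tested genes to -0.11 in activation-tagged, 0.19 in CRISPR/Cas and 0.11 in GLDT::NAC052 against reference (log2), and the share of called genes that were higher to 64.8% in CRISPR/Cas (48.9% with TMM), 79.0% in GLDT::5'truncatedNAC052 (65.9%) and 78.0% in GLDT::NAC052 (65.2%) against reference, and to 52.9% in CRISPR/Cas against GLDT::5'truncatedNAC052 (42.1%). Genes under about 1 CPM rest on few counts per library.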

Other observations

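All 26 of a list of genes that respond early to touch, wounding, cold or jasmonate could be tested. In GLDT::NAC052 14 were higher and 0 lower than in reference, with a median log2 fold change of 1.27, and 10 were higher and 0 lower than in GLDT::5'truncatedNAC052; these counts of 0 with edgeR were also 0 at an unadjusted p under 0.05 and with DESeq2. Over all tested genes 5.36% and 1.49% were higher there. Of the 14 calls 9 were kept whichever library was left out, all 5 others being lost without GLDT::NAC052 replicate 3, and of the 10 calls 2 were. In CRISPR/Cas 4 were higher and 3 lower than in reference, where 3.3% and 3.44% of all tested genes were, 3 were higher and 3 lower than in GLDT::5'truncatedNAC052 (3.4% and 4.68%), and 1 was higher and 12 were lower than in GLDT::NAC052 (5.21% and 7.69%). WRKY18, a defence regulator, was at 30.9, 43.2 and 25.4 CPM in CRISPR/Cas and 34.99, 58.1 and 57.3 CPM in GLDT::NAC052, against 7.07, 8.16 and 15.4 CPM in reference rosettes (1.70 ± 0.29 and 2.301 ± 0.29, SE; edgeR adjusted p = 0.0013 and 0.000118). ZAT6, a zinc finger factor, was at 21.4, 26.9 and 51.1 CPM in GLDT::NAC052, against 5.08, 4.61 and 6.03 CPM in reference rosettes (2.66 ± 0.36, adjusted p = 0.000154). The cold regulators DREB1A (CBF3) and DREB1B (CBF1) were lower in CRISPR/Cas, DREB1A at 0.702, 1.03 and 0.628 CPM, against 3.19, 4.73 and 2.47 CPM in reference rosettes (-2.124 ± 0.35, adjusted p = 0.000984), and DREB1B at 0.197, 0.352 and 0.352 CPM, against 2.52, 1.87 and 1.33 CPM (-2.64 ± 0.36, adjusted p = 0.000357).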
